A study of Mus musculus with 6 samples.

Results

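Immunoglobulin variable segments are the germline gene pieces that code for the antigen-contacting end of antibody chains. Counts of 157 of them are described here in descending colon from Muc2-/- and wild-type mice. They were chosen by measured values: every gene annotated as an immunoglobulin variable gene was kept where its summed read count over the 6 libraries reached 10. This gave 157 of 218 annotated variable segments in a table of 55849 genes. Of these, 75 belong to the heavy chain (Ighv, of 113 annotated), 79 to the kappa light chain (Igkv, of 102) and 3 to the lambda light chain (Iglv, of 3). A further 32 segments had 1 to 9 counts and 29 had 0. The members carried 99.6% of all variable segment counts, with summed counts from 11 to 3747 and a median of 107.

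Both groups were mice of 12 weeks with no treatment before collection, and each had 3 poly-A selected, paired-end RNA-seq libraries. The wild-type group was C57BL/6, and the other group is labelled Muc2-/-, for the gel-forming mucin of colonic mucus. The sources used here do not give the strain background of the Muc2-/- mice, their housing relative to the wild-type mice or the sex of the animals. Sample titles name crypts, whereas the growth protocol describes dissected pieces of descending colon, and smooth muscle genes were abundant in all 6 libraries. Nothing states that each library is 1 animal, so each p-value speaks only of spread among libraries.

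An antibody chain is made when a developing B cell joins 1 variable segment to a joining segment (and, in the heavy chain, a diversity segment) at the DNA level. The joined exon is then spliced to a constant region, so reads on a variable segment come mainly from B cells, or their descendants, that picked it or a near-identical one. In the gut most such RNA comes from IgA plasma cells of the lamina propria, which secrete antibody for transport across the epithelium. A single expanded clone can give 1 segment many reads, since plasma cells hold very large amounts of antibody mRNA.

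Total gene counts ranged from 16395432 to 20336459 per library. Counts on Muc2 itself were 44776, 133863 and 55133 in wild-type 1, 2 and 3 against 12706, 15451 and 15243 in Muc2-/- 1, 2 and 3. Muc2 counts were therefore lower in every Muc2-/- library but not at 0 (log2 fold change -2.15, edgeR quasi-likelihood test, adjusted p = 0.103), and how the allele disrupts Muc2 is not stated in those sources. Any pair of replicates differed far beyond sampling noise, with a chi-square of 25.0 to 148.3 per degree of freedom over genes. Muc2-/- 2 stood apart from the other libraries in that its deviations from the mean level followed gene length with a rank correlation of -0.249 across genes, against -0.0140 to 0.155 in the other 5. Smooth muscle markers (6 of 6 tested, 0 called) summed to 5222 to 18501 CPM (counts scaled by library total and TMM factor) in wild-type against 2243 to 4015 in Muc2-/-. Epithelial markers (7 of 7 tested, 0 called) summed to 9507 to 17339 CPM in wild-type against 19164 to 27927 in Muc2-/-, with Krt8 the largest term in each library. They did not all move alike. In 4 of the 7 every Muc2-/- library lay above every wild-type one, against 13.4% of all genes tested. In 1, Slc26a3, every Muc2-/- library lay below (means of 1563 CPM in wild-type and 726 in Muc2-/-). The part of smooth muscle or epithelium in the values below was not tested.

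The segments that the results turn on are printed here so that near-identical ones can be told from unlike ones. Each sequence is the last 90 bases of the annotated germline transcript in the GENCODE M21 annotation of GRCm38, 5′ to 3′ on the coding strand, which is the 3′ end of the exon that holds the variable domain. The capitals mark the last in-frame cysteine codon of that stretch, the conserved cysteine where the third and most variable antigen-contact loop begins. Members ran from 338 to 480 bases with a median of 361, so counts of different segments are on nearly the same footing by length.
The lambda segments Iglv1 (chr16:19085017-19085500, minus strand) and Iglv2 (chr16:19260401-19260859, minus strand) took nearly all lambda counts.
Iglv1: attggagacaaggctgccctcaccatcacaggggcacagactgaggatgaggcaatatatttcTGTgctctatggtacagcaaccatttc
Iglv2: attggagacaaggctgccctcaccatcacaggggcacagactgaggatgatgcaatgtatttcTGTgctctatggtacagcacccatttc
The kappa segments with the most counts were Igkv1-117 (chr6:68121046-68121827, plus strand), Igkv6-15 (chr6:70406469-70406992, minus strand) and Igkv1-110 (chr6:68270485-68271267, plus strand).
Igkv1-117: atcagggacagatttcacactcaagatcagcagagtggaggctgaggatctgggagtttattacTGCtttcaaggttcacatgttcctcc
Igkv1-110: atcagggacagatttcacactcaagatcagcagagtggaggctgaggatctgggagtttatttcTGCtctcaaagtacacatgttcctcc
Igkv6-15: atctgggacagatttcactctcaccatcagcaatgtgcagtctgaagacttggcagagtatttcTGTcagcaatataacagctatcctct
The heavy segments shown are the 1 segment that passed the test, Ighv7-3 (chr12:114153180-114153644), then Ighv6-3 (chr12:114391712-114392169) and Ighv13-2 (chr12:114357759-114358218), which were also counted mostly in Muc2-/-, and 3 Ighv1 segments, Ighv1-53 (chr12:115158403-115158835), Ighv1-26 (chr12:114788372-114788805) and Ighv1-20 (chr12:114723772-114724205), all on the minus strand.
Ighv7-3: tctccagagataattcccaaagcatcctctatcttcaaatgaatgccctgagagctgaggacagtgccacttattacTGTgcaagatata
Ighv6-3: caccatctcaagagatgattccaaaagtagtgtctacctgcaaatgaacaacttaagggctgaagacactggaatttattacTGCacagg
Ighv13-2: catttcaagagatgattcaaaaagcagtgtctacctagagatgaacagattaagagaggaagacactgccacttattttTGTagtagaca
Ighv1-53: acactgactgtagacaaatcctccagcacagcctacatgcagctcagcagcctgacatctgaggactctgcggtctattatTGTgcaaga
Ighv1-26: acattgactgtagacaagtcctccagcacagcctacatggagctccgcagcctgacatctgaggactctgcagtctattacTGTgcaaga
Ighv1-20: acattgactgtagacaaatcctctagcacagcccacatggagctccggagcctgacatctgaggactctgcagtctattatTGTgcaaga
Over the last 250 bases Iglv1 and Iglv2 were 97.2% identical, Igkv1-117 and Igkv1-110 96.4%, and Ighv1-26 and Ighv1-53 89.2%. Iglv3, the remaining lambda segment, was only 52.8% identical to Iglv1. For 16 of the 157 members another annotated segment was at least 98% identical over that stretch, among them Ighv1-20 with Ighv1-37 at 98.4%, so reads could have been divided between such pairs. The sources used here give neither the treatment of reads that match several genes nor the strand setting of the counting.

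Variable segments as a whole were higher in all 3 Muc2-/- libraries, and 1 of the 3 was far below the other two. Summed over all 218 segments, wild-type 1, 2 and 3 had 1818, 1147 and 3056 counts, or 100.5, 59.7 and 145.6 CPM scaled by library total and TMM factor. Muc2-/- 1, 2 and 3 had 13521, 2769 and 13109 counts, or 804.1, 182.8 and 809.1 CPM. By CPM the groups did not overlap, but the raw counts of Muc2-/- 2 lay below those of wild-type 3. Means were 101.9 ± 43.0 CPM (SD, n = 3) in wild-type against 598.6 ± 360.2 (n = 3) in Muc2-/-, a ratio of 5.87 with p = 0.1 in an exact two-sided permutation test. With 3 against 3 libraries there are 20 arrangements and 0.1 is the smallest p the design allows, so no measure of this kind could pass 0.05. In whole tissue, more antibody-making cells and more antibody RNA per cell cannot be told apart.

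By chain, heavy segments summed to 22.7, 15.4 and 38.2 CPM in wild-type 1, 2 and 3 against 269.6, 59.1 and 276.1 in Muc2-/- 1, 2 and 3. Their ratio of means was 7.94 (exact permutation p = 0.1, the smallest possible), and no Muc2-/- library overlapped a wild-type one. Kappa segments summed to 42.4, 32.6 and 93.2 CPM in wild-type against 444.0, 90.9 and 466.4 in Muc2-/- (ratio 5.95, exact permutation p = 0.2). Lambda segments summed to 35.4, 11.8 and 14.2 CPM in wild-type against 90.5, 32.8 and 66.5 in Muc2-/- (ratio 3.10, exact permutation p = 0.2). For both light chains Muc2-/- 2 lay just below the highest wild-type library.

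**Figure D1:**
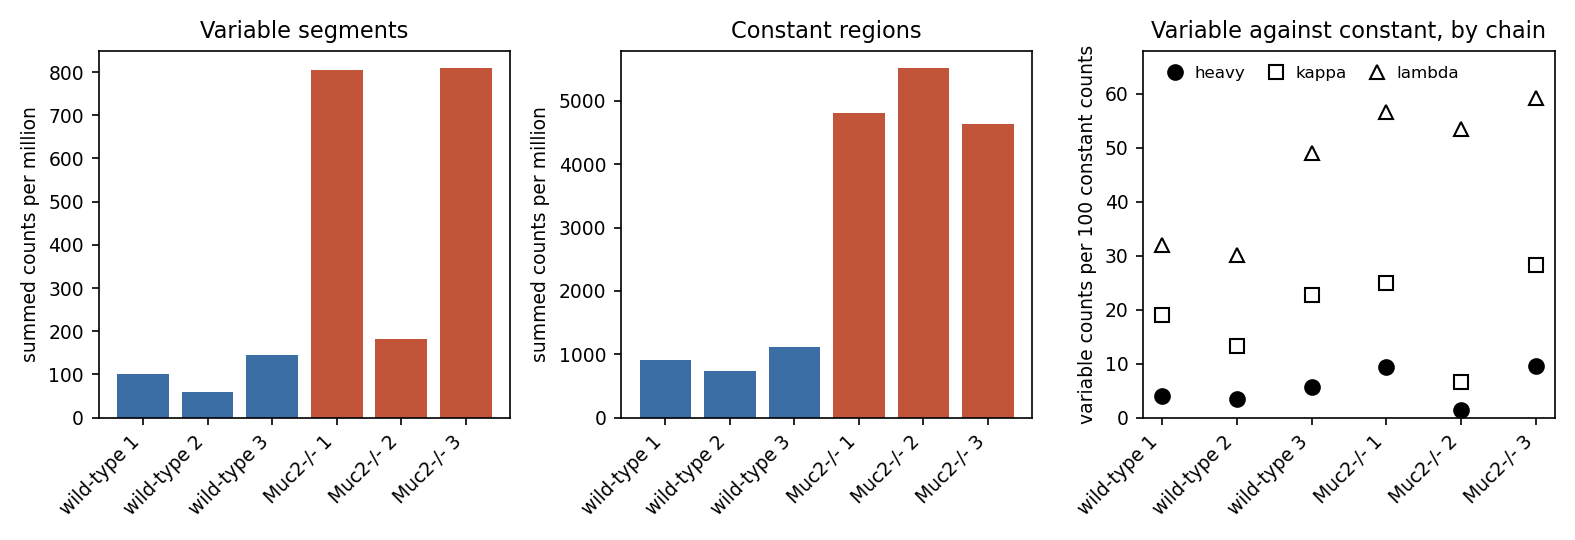
Left and middle, summed CPM of all variable segments and of all constant regions in each library, 1 bar a library, with wild-type in blue and Muc2-/- in red. Right, variable counts per 100 constant region counts for the heavy, kappa and lambda chains. Muc2-/- 2 has the tallest constant region bar (5518) but a variable bar of 182.8, and its heavy and kappa ratios are the lowest of the 6 while its lambda ratio lies with those of the other Muc2-/- libraries.

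Constant regions, which are spliced to every rearranged variable exon, gave a different order of the Muc2-/- libraries when summed over all chains. All constant region genes summed to 901, 733 and 1113 CPM in wild-type 1, 2 and 3 against 4804, 5518 and 4644 in Muc2-/- 1, 2 and 3 (ratio 5.45, exact permutation p = 0.1). Summed so, Muc2-/- 2 was the highest for constant regions and the lowest of its group for variable segments. Heavy constant counts had this order, with 48218, 61497 and 46646 in Muc2-/- 1, 2 and 3, most of them on Igha. Light-chain constant regions did not. Igkc was lowest of the group in Muc2-/- 2 (1776, 1397 and 1653 CPM), and so were lambda constant counts (2690, 928 and 1817). For every 100 constant region counts there were 11.2, 8.14 and 13.1 variable counts in wild-type against 16.7, 3.31 and 17.4 in Muc2-/-. This ratio did not separate the groups (ratio of means 1.16, exact permutation p = 0.8), and without Muc2-/- 2 it was 1.58 (p = 0.1 in the exact test).

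The low ratio of Muc2-/- 2 was seen in the heavy and kappa chains and not in lambda. Heavy variable counts per 100 heavy constant counts were 4.004, 3.43 and 5.65 in wild-type against 9.40, 1.46 and 9.59 in Muc2-/-. Kappa variable counts per 100 kappa constant counts were 18.9, 13.2 and 22.8 in wild-type against 25.0, 6.51 and 28.2 in Muc2-/-. Lambda variable counts per 100 lambda constant counts were 31.9, 30.2 and 49.0 in wild-type against 56.6, 53.6 and 59.3 in Muc2-/-. So Muc2-/- 2 had the lowest heavy and kappa ratios of all 6 libraries, while for lambda all Muc2-/- libraries lay above all wild-type ones (ratio 1.52, exact permutation p = 0.1). Joining segments, the short pieces between variable and constant exons, had 38, 22 and 14 counts in wild-type against 47, 14 and 115 in Muc2-/-, with Muc2-/- 2 again lowest of its group. The part of the length trend of Muc2-/- 2 in these ratios was not tested.

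The heavy chain took a larger share of variable counts in Muc2-/- colon. Heavy segments made up 22.6%, 25.7% and 26.2% of all variable counts in wild-type 1, 2 and 3 against 33.5%, 32.3% and 34.1% in Muc2-/- 1, 2 and 3. The groups did not overlap: exact 95% binomial (Clopper-Pearson) intervals reached at most 28.4% in wild-type and began at 30.6% or above in Muc2-/-. Such intervals cover counting error only, since reads of 1 plasma cell are not independent. Means were 24.8% ± 2.00 and 33.3% ± 0.920 (SD, n = 3 each), a difference of 8.49 percentage points (exact permutation p = 0.1, adjusted over the 3 chain shares 0.30). Against kappa alone, heavy segments were 34.8%, 32.0% and 29.1% of heavy plus kappa counts in wild-type against 37.8%, 39.4% and 37.2% in Muc2-/-, again without overlap. Constant region counts did not show this order, with heavy constant shares of 62.8%, 61.1% and 60.7% in wild-type against 59.7%, 73.6% and 62.0% in Muc2-/-.

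Kappa and lambda shares overlapped between the groups. Kappa segments took 42.2%, 54.6% and 64.0% of variable counts in wild-type against 55.2%, 49.7% and 57.6% in Muc2-/- (difference 0.589 points, exact permutation p = 0.9, adjusted 0.90). Lambda segments took 35.2%, 19.7% and 9.75% in wild-type against 11.3%, 17.9% and 8.22% in Muc2-/- (difference -9.08 points, exact permutation p = 0.3, adjusted 0.45). The lambda share of wild-type 1 set most of that difference, which was -2.25 points without this library and -14.98 without wild-type 3. Wild-type 1 also had the most B cell marker RNA: the 11 markers, all tested and 0 called, summed to 246.5 CPM there, to 24.7 and 12.9 in wild-type 2 and 3 and to 64.5, 17.2 and 97.5 in Muc2-/- 1, 2 and 3. Of these markers only Fcer2a, a receptor of mature B cells, was at 0, and only in Muc2-/- 2. The part of B cells in the lambda share was not tested.

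**Figure D2:**
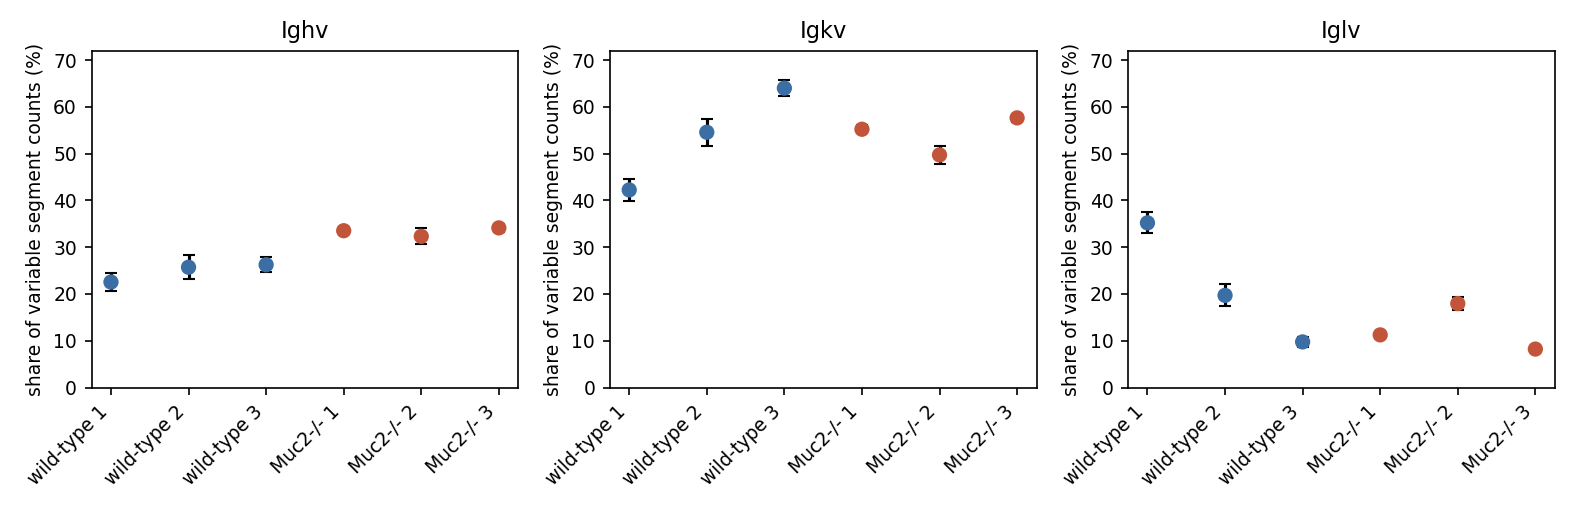
Share of all variable segment counts (%) on heavy (Ighv), kappa (Igkv) and lambda (Iglv) segments in each library, with wild-type in blue and Muc2-/- in red. Bars are exact 95% binomial intervals, smaller than the point where not visible; the 3 Muc2-/- heavy shares (32.3% to 34.1%) lie above the 3 wild-type ones (22.6% to 26.2%), whereas kappa and lambda shares overlap.

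The number of different segments in use overlapped between the groups once libraries were brought to 1 depth. With no thinning, 119, 109 and 149 segments had at least 1 count in wild-type 1, 2 and 3 against 174, 100 and 175 in Muc2-/- 1, 2 and 3. Libraries with more variable counts show more segments by counting alone, so the expected number was computed with every library thinned to the 1147 variable counts of wild-type 2. It was 109.4, 109.0 and 131.1 in wild-type against 131.2, 92.4 and 139.2 in Muc2-/-. Means of 116.5 ± 12.7 and 121.0 ± 25.0 (SD, n = 3 each) differed by less than the spread between libraries (ratio 1.04, exact permutation p = 0.8). Muc2-/- 2 used the fewest segments of any library both before and after thinning. At the stricter level of 10 counts, which follows depth directly, 31, 28 and 77 segments counted as in use in wild-type against 132, 55 and 140 in Muc2-/-. At these depths a segment with no count may still hold up to 0.165%, 0.262% and 0.0982% of variable counts in wild-type 1, 2 and 3 and up to 0.0222%, 0.108% and 0.0229% in Muc2-/- 1, 2 and 3.

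Evenness of use varied more within groups than between them. The inverse Simpson index, which is the number of equally used segments that would give the same chance of drawing 1 segment in both of a pair of reads, was 7.91, 19.7 and 40.1 in wild-type 1, 2 and 3. It was 26.8, 20.9 and 42.4 in Muc2-/- 1, 2 and 3. Means were 22.6 ± 16.3 and 30.0 ± 11.1 (SD, n = 3 each; ratio 1.33, exact permutation p = 0.5), and the ratio was 2.18 without wild-type 3. The 10 most counted segments of each library took 62.6%, 50.2% and 40.7% of variable counts in wild-type against 47.6%, 50.2% and 37.2% in Muc2-/-. Without Iglv1, the most counted segment, the index ratio turned to 0.977.

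Of the heavy and kappa chains, only kappa separated the groups by evenness. Among heavy segments the index was 5.36, 12.5 and 23.1 in wild-type against 21.1, 19.3 and 34.3 in Muc2-/-, with overlap. Among kappa segments it was 25.2, 26.2 and 29.2 in wild-type against 13.1, 18.6 and 22.5 in Muc2-/-, so that each Muc2-/- library used kappa segments less evenly than each wild-type one. These per-chain indices were not tested, and they were looked at after the values for all chains were known.

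**Figure D3:**
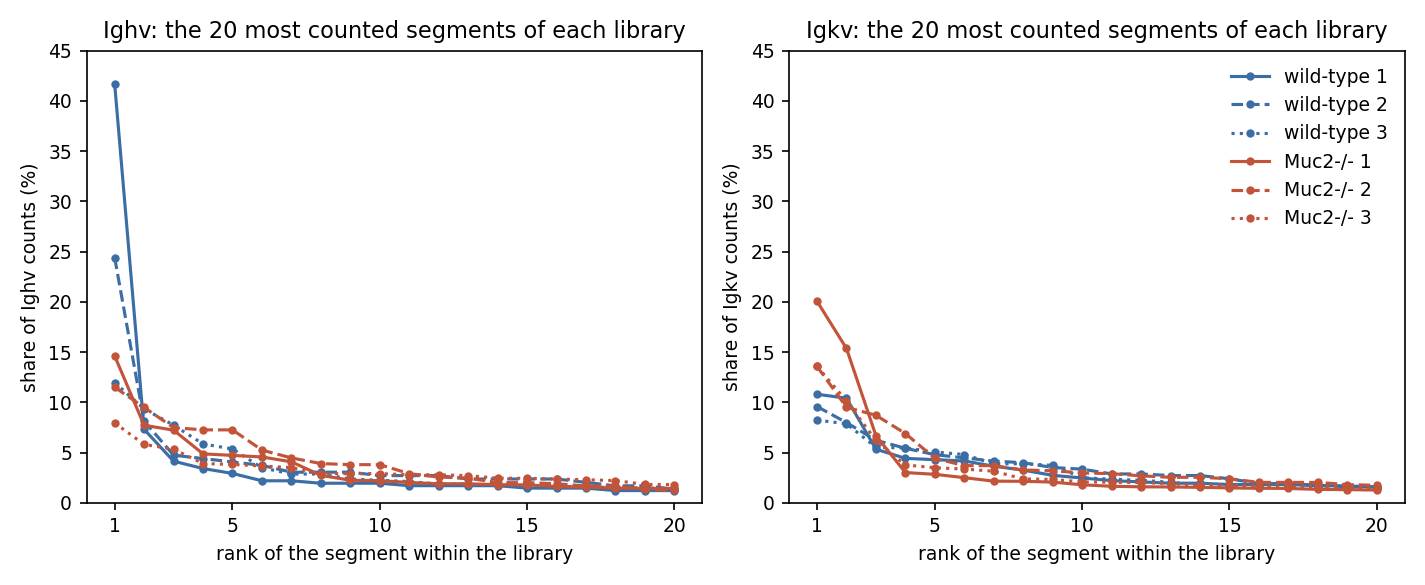
Share of heavy (left) and kappa (right) segment counts (%) taken by the 20 most counted segments of each library, by rank, with wild-type in blue, Muc2-/- in red and replicates by line style. The first heavy segment takes 41.7% and 24.4% in wild-type 1 and 2 and 7.96% to 14.6% in the other 4 libraries; the first kappa segment takes 13.6% to 20.1% in Muc2-/- and 8.23% to 10.8% in wild-type.

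A different heavy segment led in each of the 6 libraries. Ighv1-53 led in wild-type 1 with 41.7% of heavy counts (exact 95% interval 36.9% to 46.6%), Ighv5-17 in wild-type 2 with 24.4% and Ighv1-76 in wild-type 3 with 12.0%. Ighv13-2 led in Muc2-/- 1 with 14.6%, Ighv7-3 in Muc2-/- 2 with 11.5% and Ighv1-26 in Muc2-/- 3 with 7.96%. Leading segments of 1 library were often minor in others: Ighv1-53 held only 3.05% and 1.25% in wild-type 2 and 3. Ighv5-17 held 1.22% and 1.87% of heavy counts in wild-type 1 and 3, and between 1.41% and 4.47% in Muc2-/-.

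Kappa leaders were fewer and recurred. Igkv6-15 led in wild-type 1 with 10.8% and in Muc2-/- 1 with 20.1% of kappa counts. Igkv1-117 led in wild-type 2 with 9.58% and in Muc2-/- 2 and 3 with 13.6% each, and Igkv1-110 led in wild-type 3 with 8.23%. Iglv1 took 94.1%, 93.8% and 91.3% of lambda counts in wild-type against 80.6%, 95.2% and 89.1% in Muc2-/-. It was the most counted variable segment of any chain in every wild-type library, with 33.1%, 18.5% and 8.90% of all variable counts, and in Muc2-/- 2, with 17.1%.

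Of the lambda segments, Iglv1 had 602, 212 and 272 counts in wild-type 1, 2 and 3 (33.3, 11.0 and 13.0 CPM) and 1227, 473 and 961 in Muc2-/- 1, 2 and 3 (73.0, 31.2 and 59.3 CPM). Muc2-/- 2 lay just below wild-type 1, and the log2 fold change of Muc2-/- over wild-type was 1.51 (SE 0.48, edgeR quasi-likelihood test, adjusted p = 0.140). Iglv2 had 6, 13 and 17 counts in wild-type against 282, 4 and 89 in Muc2-/-, so that it was high in Muc2-/- 1 and 3 and lowest of all in Muc2-/- 2 (log2 fold change 3.61, edgeR adjusted p = 0.144). Iglc2, a lambda constant region downstream of Iglv2, was also highest in Muc2-/- 1 and 3, with 137, 88 and 109 counts in wild-type against 843, 79 and 352 in Muc2-/-. Iglv3 had 1 to 32 counts in every library and no order by group. Iglv1 and Iglv2 differ little in sequence, yet their counts had unlike orders across libraries: Iglv2 was 18.5% of lambda counts in Muc2-/- 1 and 0.805% in Muc2-/- 2.

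Igkv1-117 was the most counted kappa segment, with 41, 60 and 154 counts in wild-type 1, 2 and 3 (2.27, 3.12 and 7.33 CPM) and 1147, 187 and 1027 in Muc2-/- 1, 2 and 3 (68.2, 12.3 and 63.4 CPM). All Muc2-/- libraries lay above all wild-type ones, with a log2 fold change of 3.49 (SE 0.71, edgeR adjusted p = 0.101). Igkv6-15 had 83, 21 and 76 counts in wild-type against 1498, 120 and 469 in Muc2-/-, and 65.9% of its summed CPM lay in Muc2-/- 1 (log2 fold change 3.76, edgeR adjusted p = 0.103). Igkv1-110 had 80, 34 and 161 counts in wild-type against 499, 131 and 766 in Muc2-/-, again without overlap in CPM (log2 fold change 2.62, edgeR adjusted p = 0.107). Igkv4-59 had 3, 25 and 40 counts in wild-type against 225, 61 and 254 in Muc2-/- (log2 fold change 3.28, edgeR adjusted p = 0.103). Igkv10-96 and Igkv6-23 overlapped between groups, since Muc2-/- 2 had only 25 and 15 counts of them (log2 fold changes 1.90 and 2.44, edgeR adjusted p = 0.237 and 0.234). None of the 49 tested kappa segments passed an adjusted p of 0.05 in the edgeR test.

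Ighv7-3 was the only variable segment that passed the test over all genes. It had 6, 9 and 18 counts in wild-type 1, 2 and 3 (0.332, 0.468 and 0.857 CPM) and 350, 103 and 260 in Muc2-/- 1, 2 and 3 (20.8, 6.80 and 16.05 CPM). The lowest Muc2-/- library, Muc2-/- 2, was well above the highest wild-type one. Means were 0.552 ± 0.273 and 14.6 ± 7.13 CPM (SD, n = 3 each), a log2 fold change of 4.69 (SE 0.57, edgeR adjusted p = 0.0456). The call was close to the threshold: it was lost on leaving out wild-type 1 (edgeR adjusted p = 0.209), wild-type 2 (0.179), Muc2-/- 1 (0.0794) or Muc2-/- 3 (0.151). The log2 fold change stayed between 3.94 and 5.16 over the 16 alternatives, of which 9 kept the call.

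Other much counted heavy segments did not pass the test. Ighv6-3 had 2, 7 and 5 counts in wild-type against 328, 85 and 61 in Muc2-/-, without overlap (log2 fold change 5.29, SE 0.82, edgeR adjusted p = 0.0725). Ighv1-64 had 9, 9 and 23 counts in wild-type against 185, 65 and 164 in Muc2-/-, also without overlap (log2 fold change 3.602, SE 0.56, edgeR adjusted p = 0.0725). Ighv13-2 had 0, 0 and 28 counts in wild-type against 663, 5 and 171 in Muc2-/-: it was a leading segment in Muc2-/- 1 and nearly absent from Muc2-/- 2 (log2 fold change 5.17, SE 1.75, edgeR adjusted p = 0.156). Ighv1-26 had 17, 12 and 75 counts in wild-type against 221, 47 and 356 in Muc2-/- (log2 fold change 2.88, edgeR adjusted p = 0.124). Ighv1-53 differed from these, with 171, 9 and 10 counts in wild-type against 124, 26 and 130 in Muc2-/-, so that wild-type 1 was the highest library (log2 fold change 0.72, edgeR adjusted p = 0.757). Ighv5-17 (5, 72 and 15 against 64, 40 and 157 counts) and Ighv1-76 (6, 5 and 96 against 81, 65 and 52 counts) also each had 1 wild-type library among the Muc2-/- values.

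The largest fitted fold changes among tested segments, next to that of Ighv6-3, were those of heavy segments rarely counted in wild-type. Ighv5-12 had 0, 0 and 4 counts in wild-type against 86, 34 and 42 in Muc2-/- (log2 fold change 5.49, edgeR adjusted p = 0.0948). Ighv1-84 had 0, 1 and 0 counts in wild-type against 22, 17 and 13 in Muc2-/- (log2 fold change 5.48, edgeR adjusted p = 0.0856). With so few wild-type counts these fitted values depend on the prior count of the fit. With TMM factors and all 6 libraries in the unblocked fit no tested segment had a negative log2 fold change, and the 3 smallest were 0.03 for Igkv3-1, 0.08 for Igkv3-4 and 0.10 for Igkv4-80. Igkv3-4 was the steadiest of them in wild-type, with 14, 11 and 12 counts against 8, 0 and 25 in Muc2-/-. Igkv4-80 had 1, 0 and 94 counts in wild-type against 34, 24 and 21 in Muc2-/-, so its fold change rests on wild-type 3, and it was 5.59 without that library. With no composition factors these 3 small values were all negative, and each was also negative without at least 1 of the libraries.

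**Figure D4:**
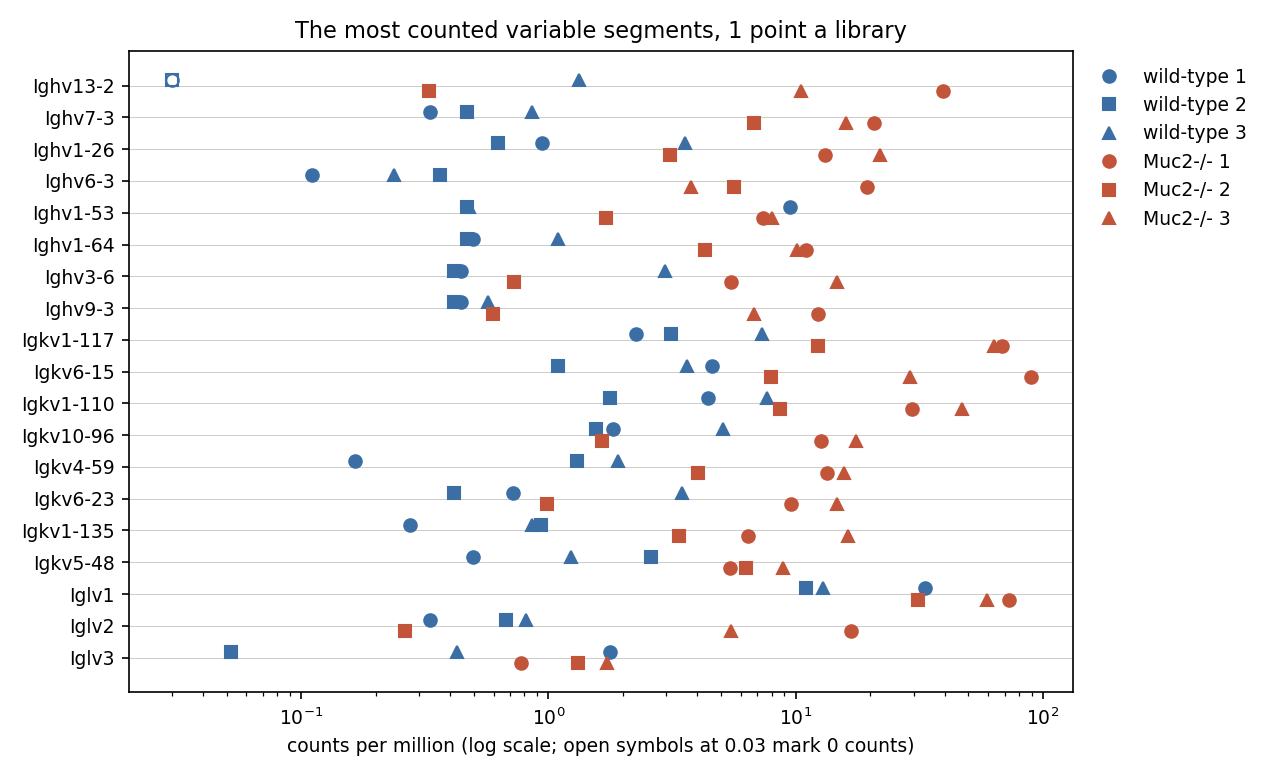
CPM on a log axis for the most counted heavy, kappa and lambda segments, 1 point a library, with wild-type in blue, Muc2-/- in red and replicates by symbol; open symbols at 0.03 mark libraries with 0 counts. For Ighv7-3 the nearest libraries of the groups stand at 0.857 and 6.80 CPM, while Ighv13-2, Ighv1-53 and Iglv2 have libraries of 1 group among those of the other.

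Of the 157 members, 84 reached the minimum count of the filter in enough libraries to be tested (32 heavy, 49 kappa and 3 lambda) and 73 did not. Of the 84 tested members, 1 (1.19%) was called higher in Muc2-/- by edgeR at an adjusted p under 0.05, against 0.106% of all 16107 genes tested, and 0 were called lower. All 84 had a positive log2 fold change, though 3 near 0 turned with no composition factors, with a median of 2.56 (3.13 for heavy, 2.42 for kappa and 1.51 for lambda segments), against a median of -0.01 over all genes tested. In 34 of the 84 (40.5%) every Muc2-/- library lay above every wild-type library, against 13.4% of all genes tested. At an unadjusted p under 0.05, 50 of the 84 were higher in Muc2-/-, against 8.23% of all genes tested. DESeq2, which shares spread between genes differently, called 53 of 141 members higher and 0 lower, against 3.35% of the 18478 genes to which it gave an adjusted p. These counts describe the tested members and do not support a difference by themselves. Of the 84, 7 passed the filter with at least 10 counts in no wild-type library. Only 14 of the 84 had at least 10 counts in every wild-type library, so counts in Muc2-/- weighed in passing the filter. The summed count that chose members also favours segments high in 1 group.

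Many members were carried by 1 library. Only 65 of 157 had a count in all 6 libraries, and 58 had 0 counts in Muc2-/- 2. In 85 members 1 library held at least 50% of the summed CPM, and in 10 at least 80%, of which 3 were in Muc2-/- 1 and 7 in Muc2-/- 3. Ighv1-20, the sequence of which stands above, had 0, 0 and 5 counts in wild-type against 214, 0 and 2 in Muc2-/-, so 97.2% of its summed CPM was in Muc2-/- 1. Igkv4-63 had 0, 0 and 2 counts in wild-type against 3, 0 and 63 in Muc2-/-. The highest CPM of a member was in Muc2-/- 3 for 96 members, in Muc2-/- 1 for 51, in Muc2-/- 2 for 2 and in a wild-type library for 8. The 7 members with 0 counts in all wild-type libraries were Ighv2-9, Igkv8-16, Ighv1-31, Ighv5-15, Ighv1-47, Ighv1-56 and Ighv3-4, with summed counts from 11 to 51, and no member was at 0 in all Muc2-/- libraries. A higher wild-type mean was seen in 3 members, Ighv1-15 (9, 2 and 47 against 8, 0 and 14 counts), Ighv9-1 (0, 14 and 0 against 4, 0 and 4) and Igkv12-38 (3, 0 and 17 against 0, 0 and 2). None of them was tested, since the filter of the fit asks for a minimum count in several libraries and not for a summed count alone. Segments singled out by library here were chosen after their values were seen.

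At the threshold of 10, the members just inside were Ighv3-4 (summed count 11), Ighv8-5 (12) and Ighv1-56 (13), and the segments just outside were Ighv9-2 (9), Ighv14-4 (8) and Igkv1-132 (8). Ighv3-4 had all of its 11 counts in Muc2-/- 3, whereas Ighv14-4 had 2, 0 and 4 counts in wild-type against 2, 0 and 0 in Muc2-/-.

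Segments are grouped into families by sequence, and the family is the first number of the name. Ighv1, the largest heavy family with 41 members, took 78.0%, 42.7% and 66.1% of heavy counts in wild-type 1, 2 and 3 against 41.5%, 52.7% and 52.3% in Muc2-/- 1, 2 and 3. Ighv7, with 2 members, took 4.88%, 3.39% and 2.24% in wild-type against 8.29%, 11.5% and 7.09% in Muc2-/-, without overlap. Ighv6 took 1.46%, 3.05% and 2.24% in wild-type against 9.49%, 17.0% and 2.70% in Muc2-/-, with Muc2-/- 3 just below wild-type 2. Ighv5 took 26.4% in wild-type 2, where Ighv5-17 led, and 1.71% to 10.9% in the other 5 libraries.

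In the kappa chain, Igkv1, the family of Igkv1-117 and Igkv1-110, took 16.8%, 18.4% and 18.1% of kappa counts in wild-type against 24.4%, 26.8% and 28.0% in Muc2-/-. These shares were close within each group (17.8% ± 0.841 and 26.4% ± 1.84, SD, n = 3 each) and did not overlap. Igkv17 was also higher in each Muc2-/- library, at 1.69%, 1.76% and 1.43% in wild-type against 2.99%, 4.07% and 1.77% in Muc2-/-. Igkv2 (3.26%, 8.15% and 5.16% against 0.482%, 2.69% and 2.25%), Igkv10 (5.21%, 5.75% and 9.36% against 4.18%, 5.08% and 5.17%) and Igkv13 (2.08%, 0.958% and 1.12% against 0.616%, 0% and 0.556%) were lower in each Muc2-/- library. Most families of both chains overlapped between the groups, and those named here were picked from all families by their shares. Separation of 3 against 3 libraries cannot give an exact permutation p below 0.1, so some families would separate with no difference between groups. Family shares were not tested and sum to 100% within a chain, so a larger share of one family leaves less for the rest.

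Along the heavy locus, the variable segments lie in a row upstream of the constant regions, and the rows were split by position into 3 near-equal groups. The 37 segments nearest the constant regions took 12.7%, 41.4% and 15.1% of heavy counts in wild-type against 26.1%, 27.6% and 28.3% in Muc2-/-. The 37 farthest took 67.6%, 33.2% and 43.3% in wild-type against 27.0%, 42.0% and 30.8% in Muc2-/-. For both stretches the groups overlapped, while the near share varied little among Muc2-/- libraries. Kappa segments on the same strand as Igkc (38 annotated) took 46.9%, 47.6% and 37.0% of kappa counts in wild-type against 38.9%, 51.9% and 47.2% in Muc2-/-, with no order by group.

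Overlap of segment use between the groups spanned the values seen within them by the first measure below, but not by the other measures. The Morisita-Horn overlap of segment counts, which is 0 for no shared use and 1 for equal use, was 0.506 to 0.776 between wild-type libraries and 0.780 to 0.830 between Muc2-/- libraries. Between a wild-type and a Muc2-/- library it was 0.462 to 0.882, with the highest value for wild-type 2 and Muc2-/- 2. This overlap is weighted to the most counted segments, and Iglv1 led in both of those libraries. The rank correlation over members ordered the pairs otherwise. It was 0.484 to 0.582 within wild-type, 0.569 to 0.715 within Muc2-/- and 0.421 to 0.653 across groups. Its lowest value was that of wild-type 2 and Muc2-/- 2. The lists of the 10 most counted segments shared 5 names between any wild-type pair, 5 to 7 between Muc2-/- pairs and 4 to 5 across groups. In all, 28 segments were in at least 1 of the 6 lists, 3 were in every list and 15 were in 1 list only. Libraries of fewer counts give less exact overlaps, and these values were not tested.

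The antibody genes outside the variable segments were read from 3 lists, whose choice was made with earlier results of these data known. Of 13 constant region genes, 11 were tested and 3 were called higher by edgeR, against 0.106% of all genes tested. Their median log2 fold change was 1.88 over the 11 tested. Igha, the IgA heavy constant region, had 7975, 8273 and 13943 counts in wild-type against 47035, 61170 and 44930 in Muc2-/- (log2 fold change 2.65, edgeR adjusted p = 0.0456). Igkc, the kappa constant region, had 4058, 4728 and 8582 counts in wild-type against 29869, 21160 and 26786 in Muc2-/- (log2 fold change 2.46, edgeR adjusted p = 0.0490). Iglc1, a lambda constant region, had 316, 279 and 451 counts in wild-type against 1186, 795 and 1198 in Muc2-/- (log2 fold change 1.88, edgeR adjusted p = 0.0456). Ighm and Iglc3 had no such order: Ighm, the IgM constant region, was at 75.3, 11.6 and 4.62 CPM in wild-type against 29.6, 7.66 and 37.8 in Muc2-/-. Iglc3, which is very like Iglc2 in sequence so that their reads may have been divided between them, was at 85.8, 19.8 and 2.29 CPM in wild-type against 39.3, 3.56 and 16.5 in Muc2-/-. Ighg2b and Ighg3, IgG constant regions, were higher in every Muc2-/- library but not called (log2 fold changes 2.91 and 1.97, edgeR adjusted p = 0.101 and 0.123). Ighg1, Ighg2c, Ighd and Ighe overlapped between the groups.

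Of 17 genes of plasma cells and antibody secretion, all tested, 1 was called higher and 0 lower, with a median log2 fold change of 0.98. Of all genes tested, 0.106% were called higher. That gene was Jchain, which links IgA into dimers, with 3016, 3360 and 4159 counts in wild-type against 13802, 16548 and 12042 in Muc2-/- (log2 fold change 2.30, edgeR adjusted p = 0.0286). Pigr, the epithelial receptor that carries IgA dimers across the cell, had a log2 fold change of 0.10 (edgeR adjusted p = 0.896). Plasma cell markers (9 of 9 tested, 2 called higher, Jchain and Igha) summed to 1007 to 1364 CPM in wild-type against 4191 to 5758 in Muc2-/-, and Igha was the largest term in each library. The markers did not order the Muc2-/- libraries alike. Igha, Jchain and Sdc1 were highest in Muc2-/- 2 (3 of 9), whereas Mzb1, Xbp1, Irf4, Tnfrsf17 and Derl3 were lowest of the group there (5 of 9). Xbp1, a transcription factor of secretory cells, stood at 180.3 CPM in Muc2-/- 2, against 294.3 and 312.4 in Muc2-/- 1 and 3 and 189.8 to 213.6 in wild-type. Of the 9 markers, Xbp1 and Sdc1 had the smallest ratios of Muc2-/- to wild-type means (1.32 and 1.42). Their wild-type means were 198.9 and 258.2 CPM. The part of cells other than plasma cells in Xbp1 and Sdc1 was not tested.

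Of 6 genes that join segments or mutate them, 2 were tested and 0 called by edgeR. Rag1 and Rag2, the recombinase that joins variable segments in developing B cells, and Dntt, which adds bases at the joints, had between 0 and 2 counts in every library. Ung, which removes uracil from DNA, had a log2 fold change of -0.66 (edgeR adjusted p = 0.203), and Polh, a polymerase that copies past damaged bases, 0.14 (edgeR adjusted p = 0.864). Follicle stroma markers (5 of 5 tested, 0 called) summed to 131.5, 37.3 and 28.4 CPM in wild-type 1, 2 and 3 against 41.0, 23.6 and 39.0 in Muc2-/-, highest in the wild-type library that also had the most B cell markers and the largest lambda share. T cell markers (5 of 6 tested, 0 called) summed to 1.87 to 7.52 CPM in wild-type against 5.35 to 19.8 in Muc2-/-.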

How the data were processed

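The deposited gene count table and FPKM table of 6 poly-A libraries were used. Per the submitters' processing notes, the authors used featureCounts 1.5.0-p3, DESeq2 1.20.0, HISAT2 2.0.5 and StringTie 1.3.3b with mm10; the sources used here give no settings. The counts deposited by the authors are whole numbers per gene, and the FPKM values deposited by the authors are normalized by length and depth. Coordinates in the table differ from GENCODE M21 (GRCm38), so segments were matched by Ensembl ID (157 of 157, all with the same width) and GENCODE coordinates are printed.

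Counts were tested with edgeR 4.0.16 (R 4.3.3; filterByExpr with a minimum count of 10, TMM factors, glmQLFit and glmQLFTest, Benjamini-Hochberg over 16107 genes, adjusted p under 0.05). CPM are counts over library total times TMM factor. Totals, shares, numbers in use and evenness cover all 218 segments and were compared with exact two-sided permutation tests over 20 arrangements; 2 rows with other names (Gm) lie in the kappa locus and were counted as kappa. Thinning used the hypergeometric expectation. A count of 0 was given a limit of 3 counts. The fit was tested on data simulated with the same spread for all genes and with changes only in better counted genes. That check does not cover segments of low count.

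Segments were named by rule: the 6 heavy, 6 kappa and 2 lambda with the largest summed counts, the leader of each chain in each library, all called segments, the 3 largest and 3 smallest log2 fold changes, 3 segments on each side of the count threshold, and genes of the lists that were called or had the highest means. The members, lists (constant regions; plasma cell and antibody secretion; joining and mutation; markers of plasma cells, B cells, follicle stroma, T cells, colon epithelium and smooth muscle) and tests were chosen with earlier results of these data known. Alternatives were DESeq2 1.42.0, limma 3.58.1 on log2(FPKM + 1) and log2(FPKM + 0.1), other scalings and filters, a replicate block and leaving out libraries; leaving out wild-type 1 and Muc2-/- 2 together was added after seeing the data. One gene of these lists, and a marker list that holds it, are not reported here.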

Additional observations from a re-analysis of the deposited data

How the results depend on the processing

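The summed variable level kept its direction in all 11 alternatives (ratio 4.84 to 7.92), and so did the heavy share (6.20 to 9.19 points) and the lambda share (-14.98 to -0.38) in all 10 of theirs. Leaving out 1 library at a time, the ratio for segments in use ran from 0.960 to 1.16, the kappa share difference from -5.09 to 5.79 points and variable counts per constant count from 0.929 to 1.58. Segments in use turned below 1 without Muc2-/- 1 (0.994) or Muc2-/- 3 (0.960). Without Iglv1 the evenness ratio was 0.977 and the kappa share difference -5.82, and the latter was -2.86 without wild-type 1 and Muc2-/- 2 together.

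Counts of calls depended strongly on the fit. Against 20 of all genes (17 higher, 3 lower) and 1 variable segment, edgeR called 8 and 0 with no composition factors, which shifted the median log2 fold change of all genes to -0.20 from -0.01. It called 1199 and 43 with no filter on low counts, and DESeq2 called 1875 and 53. Limma called 46 and 5 on log2(FPKM + 1), 39 and 5 on log2(FPKM + 0.1), and 3 and 0 with no FPKM minimum. Leaving out 1 library gave 0 (without wild-type 2) to 1226 (without wild-type 3) of all genes and 0 to 26 segments, the 26 without wild-type 3. The counts were 5 and 0 when Muc2-/- 1 was dropped, and 18 and 3 for Muc2-/- 2. Dropping Muc2-/- 3, wild-type 1, or wild-type 1 and Muc2-/- 2 together gave 1 and 0 each time. The causes were not tested.

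Whether replicate numbers pair the libraries was not settled. Deviations of same-numbered libraries correlated at 0.0937, 0.281 and 0.0606 across genes, and those of other pairs at -0.247 to 0.0749. With 3 libraries a group such values cannot decide it. With the number as a replicate block edgeR called 673 genes and 22 segments; wild-type 3 and Muc2-/- 3 each correlated better with another number.

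Of 330 refits of the 21 named segments, 259 kept direction and call, 48 gained a call, 7 lost it and 16 changed sign. Sign changes were in 3 segments whose log2 fold change was near 0. Igkv3-1 was -0.088 with no composition factors. Igkv3-4 was -0.068 so, -0.25 on log2(FPKM + 1) with or without a minimum, -1.11 on log2(FPKM + 0.1) and -0.55 with the replicate block. Igkv4-80 was -0.041 with no composition factors and -0.44 without wild-type 1 and Muc2-/- 2. Leaving out 1 library, Igkv3-1 ran from -0.84 to 3.34, Igkv3-4 from -1.36 to 0.68 and Igkv4-80 from -0.48 to 5.59.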
